A study of Homo sapiens with 60 samples.

Results

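Dried ginger (Zingiberis Rhizoma) given as a water extract at 500 µg/mL was compared with the DMSO vehicle in A549 cells, a line grown from a human lung carcinoma, over all genes with enough counts to be tested. The members are 3 libraries of the extract and 3 of the vehicle, chosen by their labels, out of 60 libraries in 20 groups that cover 6 plant extracts at 3 doses, wortmannin and the vehicle. RNA was taken after 24 h and sequenced as directional mRNA libraries. Per the labels' protocols the plants were dried and ground before extraction, which holds for both gingers of the series. For the vehicle wells the labels state 0.1% DMSO but the design text 2%, and the content of DMSO in the extract wells is not stated. To show where dried ginger at 500 µg/mL differs, 3 further groups of 3 libraries each were used: the same extract at 20 µg/mL, Zingiberis Rhizoma Recens (by its name fresh ginger) at 500 µg/mL, and Pinelliae Tuber (the tuber of Pinellia) at 500 µg/mL.

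The 3 dried ginger libraries held 21840396, 21830786 and 24950762 estimated counts, against 23723505, 25002638 and 19191920 in the 3 vehicle libraries. The markers KRT8, KRT18, KRT7, EPCAM, AKR1B10, AKR1C1 and ALDH3A1, fixed for this carcinoma line, were all detected, with a summed level of 10342 to 11167 CPM (counts-per-million units, here of the library total) in dried ginger and 11543 to 12016 in vehicle. The surfactant genes SFTPA1 and SFTPA2 of alveolar type II cells, the blood cell genes PTPRC, CD3E, MS4A1 and HBB, and the stromal genes DCN and KDR had 0 counts in all 6 libraries. Other members of these lists were detected in every library. The type II gene ABCA3 had 398 to 591 counts, the blood cell gene CD14 32 to 43, and the stromal genes LUM and PDGFRA 6 to 15 and 4 to 13. The 10 type II markers summed to 25.5 to 26.7 CPM with dried ginger and 22.1 to 23.7 in vehicle, the 8 blood cell markers to 1.56 to 1.83 CPM with dried ginger and 1.76 to 2.40 in vehicle, and the 8 stromal markers to 0.916 to 1.56 CPM with dried ginger and 0.760 to 1.22 in vehicle. The part of these levels in the results was not tested. Whether the 3 libraries of a group came from separate cultures is not stated. The p-values therefore reflect the spread between libraries of one group, pooled over all 20 groups, and that spread may be technical. The first number of the sample code is 2 in both gingers, 3 in Pinelliae Tuber and A1 in the vehicle. The meaning of this number is not stated. Outside the comparisons between ginger groups, its effect and that of treatment cannot be told apart.

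As background, the aryl hydrocarbon receptor (AHR) is a ligand-activated transcription factor that binds flat plant and combustion compounds and switches on cytochrome P450 genes together with its own repressors. The integrated stress response slows translation and, through the transcription factor ATF4, raises genes that make, import and charge amino acids. NF-kB is held in the cytoplasm by IkB proteins and, once released, drives chemokines, adhesion molecules and its own inhibitors, and lung epithelial cells use it to recruit neutrophils and monocytes.

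With dried ginger at 500 µg/mL, some genes of the AHR list (4 of 10 tested) rose, as did most stress response and amino acid synthesis genes of the ATF4 program (12 of 18 and 10 of 14). Most chemokine and cytokine genes (8 of 11, with 1 lower) and 10 of 21 NF-kB subunit, feedback and adhesion genes (with 1 lower) also rose. The NR4A nuclear receptors, fibrinogens, several matrix, heat shock and mitosis genes, and keratins 8 and 18 fell. Of 17129 genes tested with edgeR's quasi-likelihood test, 916 (5.35%) had a Benjamini-Hochberg adjusted p under 0.05, the threshold for a call throughout. Of these, 498 (2.91%) were higher and 418 (2.44%) lower with dried ginger. These 2 shares are the background for every list count against vehicle. The count was 2002 with each library's slope of log counts on transcript length as a covariate, and DESeq2 called 494 higher and 504 lower. Across the 17016 tested genes with a known length, the log2 fold change had a Spearman correlation of -0.131 with transcript length, as a description across genes, which are not independent replicates. Most differences were small: the median size among called genes was 1.25-fold, 87 genes rose and 64 fell by 1.5-fold or more, and 31 rose and 20 fell by 2-fold or more. In 906 of the 916 the 3 dried ginger libraries lay wholly on one side of the 3 vehicle libraries. Protein-coding genes made up 96.4% of the called and 79.5% of the tested genes. In bulk RNA, fewer cells of one state and less RNA per cell cannot be told apart.

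**Figure D1:**
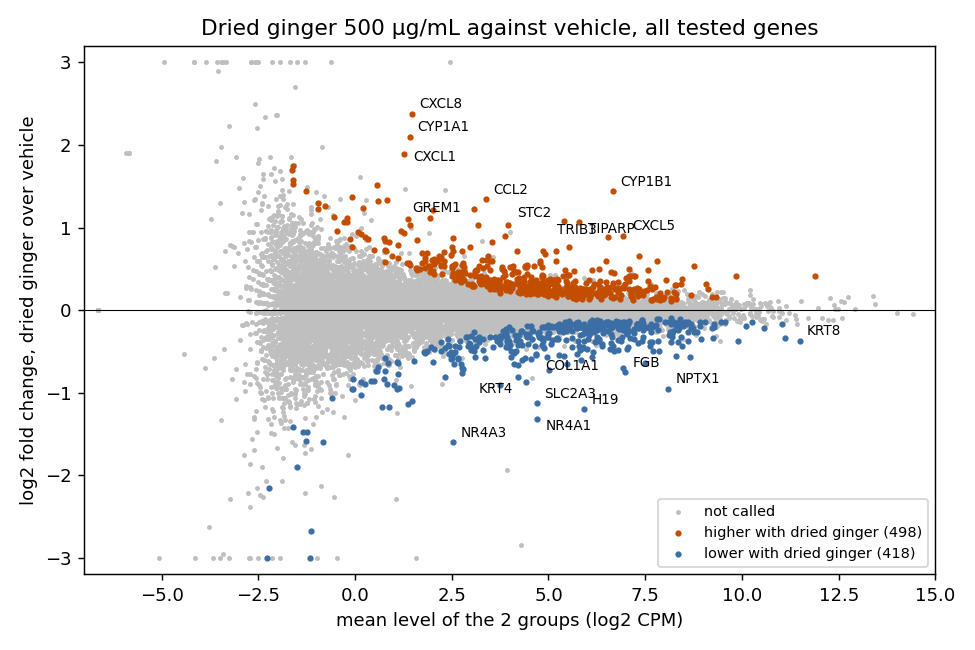
Log2 fold change of dried ginger at 500 µg/mL over vehicle (vertical axis) against the mean level of both groups in log2 CPM (horizontal axis), 1 point per tested gene, with the 498 genes called higher and the 418 called lower in colour. Points at the edge stand for the 35 genes, 2 of them called, that lie beyond a log2 fold change of 3 in size. CXCL8 (2.38) and CYP1A1 (2.10) lead the rises named below, and NR4A3 (-1.60) and NR4A1 (-1.32) lead the falls.

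The 12 largest rises among called genes with a mean of at least 1 on the log2 CPM scale and non-overlapping libraries were CXCL8, CYP1A1, CXCL1, CYP1B1, CCL2, GREM1, CXCL2, AHRR, ADM2, STC2, TIPARP and CHAC1, with log2 fold changes of 2.38 for CXCL8 down to 1.03 for CHAC1. The 12 largest falls by the same rule were NR4A3, NR4A1, H19, NR4A2, SLC2A3, AP001972.5, NPTX1, IGFBP5, HS3ST6, INSL4, HPD and KRT4, with log2 fold changes of -1.60 for NR4A3 up to -0.87 for KRT4. Of the rises, 4 are AHR targets and 4 are chemokines.

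Of 10 tested members of the AHR list, 4 rose and 0 fell, beside 2.91% and 2.44% of all tested genes. DESeq2 called 4 higher and 1 lower. The list's median log2 fold change was 0.14 against 0.00 over all tested genes. The 4 were the cytochromes CYP1A1 and CYP1B1, which oxidise polycyclic compounds, the AHR repressor AHRR, and TIPARP, an ADP-ribosyltransferase that shuts the receptor down. CYP1A1 (ENSG00000140465) was at 4.93, 4.35 and 3.56 CPM, from here on relative to the TMM-adjusted library size, with dried ginger and at 0.914, 0.863 and 1.24 CPM in vehicle. CYP1B1 (ENSG00000138061) was at 160.3, 147 and 139.6 CPM with dried ginger and at 56.4, 54.7 and 53.3 CPM in vehicle. TIPARP was at 78.1, 74.1 and 73.4 CPM with dried ginger and at 36.4, 37.2 and 33.5 CPM in vehicle. In each of these genes every dried ginger library lay above every vehicle library. The log2 fold changes were 2.10 ± 0.21 (SE) for CYP1A1 (edgeR, adjusted p = 1.56e-10), 1.44 ± 0.06 for CYP1B1 (adjusted p = 1.08e-22) and 1.07 ± 0.08 for TIPARP (adjusted p = 5.78e-15). AHRR, at 5.96, 5.21 and 4.51 CPM with dried ginger and 2.41, 2.59 and 2.17 CPM in vehicle, rose by 1.12 ± 0.17 (adjusted p = 6.23e-06). The transcripts of the receptor itself (AHR, log2 fold change -0.27, adjusted p = 0.0618) and of its partner ARNT (0.00, adjusted p = 0.998) did not pass the test, nor did NQO1 (0.07, adjusted p = 0.739) and ALDH3A1 (0.22, adjusted p = 0.0596), which both AHR and NRF2 can drive.

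The dioxin response core GCGTG, the DNA letters that AHR with ARNT binds, was searched on both strands in the RefSeq promoter table (build GRCh38.p14, the 250 bases before each gene's start). It was found in 3 of the 3 called AHR genes with an entry, and in 32.2% of all 35116 promoters of the table. The list was chosen with earlier results of these data known, and its members that were not called were not searched. The share therefore cannot set called members apart from the rest of the list. The stretches of 100 bases that hold it are shown for these 3 called members of the AHR list. Each is read 5′ to 3′ on the gene's strand with the core in capitals (CACGC is the core read from the other strand). Whether AHR itself was active was not tested. CYP1A1 lies at chr15:74725529-74725628 on the minus strand, AHRR at chr5:321614-321713 on the plus strand and TIPARP at chr3:156674370-156674469 on the plus strand.
CYP1A1: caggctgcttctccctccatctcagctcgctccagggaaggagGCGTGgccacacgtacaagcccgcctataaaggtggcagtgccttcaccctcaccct
AHRR: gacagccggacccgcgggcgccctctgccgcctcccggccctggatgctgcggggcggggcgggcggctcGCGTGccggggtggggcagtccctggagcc
TIPARP: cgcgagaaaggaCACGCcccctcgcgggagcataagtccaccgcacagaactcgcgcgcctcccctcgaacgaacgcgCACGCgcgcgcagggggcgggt
The core starts 57 bases before the gene's start in CYP1A1 and 30 bases before it in AHRR, and its 2 copies in TIPARP start 208 and 142 bases before it. A match describes these letters and shows no binding.

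Most measurable chemokines rose. Of 11 tested chemokines and cytokines, 8 rose and 1 fell, and the list's median log2 fold change was 0.92 against 0.00 over all tested genes. The other 10 of the 21 listed genes, among them IL6, IL1B and TNF, had too few counts to be tested. CXCL8 (ENSG00000169429), the main neutrophil chemokine of epithelium, was at 4.67, 5.30 and 4.11 CPM with dried ginger and at 1.12, 0.941 and 0.568 CPM in vehicle, a 5.21-fold rise. CCL2 (ENSG00000108691), which attracts monocytes, was at 14.2, 15.8 and 14.9 CPM with dried ginger and at 6.11, 5.69 and 5.99 CPM in vehicle. CXCL5, another neutrophil chemokine, was at 160.1, 164 and 152 CPM with dried ginger and at 80.5, 87.1 and 86.9 CPM in vehicle. No dried ginger library overlapped a vehicle library in these 3 genes. On the log2 scale the rise was 2.38 ± 0.21 for CXCL8 (edgeR, adjusted p = 7.99e-12), 1.34 ± 0.14 for CCL2 (adjusted p = 3.01e-10) and 0.90 ± 0.05 for CXCL5 (adjusted p = 1.31e-18).

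The neutrophil chemokines CXCL1, CXCL2 and CXCL3 rose by 1.89 ± 0.22, 1.21 ± 0.15 and 0.96 ± 0.20 on the log2 scale (edgeR, adjusted p = 6.85e-09, 5.1e-08 and 0.000834). These 3 genes are close paralogs, so the split of reads between them is uncertain. CXCL1 was at 3.29, 4.31 and 3.76 CPM with dried ginger and at 1.12, 0.863 and 1.08 CPM in vehicle. The cytokine IL32 rose by 0.71 ± 0.15 (adjusted p = 0.000834) and LIF, an IL-6 family cytokine, by 0.28 ± 0.06 (adjusted p = 0.000443). IL11, of the same family as LIF, was the member that fell, at 20.6, 21.2 and 21.0 CPM with dried ginger and 30.2, 31.9 and 29.4 CPM in vehicle, a log2 fold change of -0.55 ± 0.07 (adjusted p = 5.62e-07). Its mean with dried ginger was the lowest of the 20 groups, at 20.9 ± 0.326 CPM (SD). The level was close to that of fresh ginger at 500 µg/mL (21.3 ± 1.87 CPM), so the low level was shared by both gingers. CCL20 (0.92, adjusted p = 0.305) and IL18 (-0.12, adjusted p = 0.716) did not pass the test.

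Among NF-kB subunits, feedback inhibitors and adhesion genes, 10 of 21 tested members rose and 1 fell, with a median log2 fold change of 0.22 against 0.00 over all tested genes. RELB, a subunit of the noncanonical branch, was at 22.6, 22.8 and 22.5 CPM with dried ginger and at 14.2, 13.6 and 13.6 CPM in vehicle (log2 fold change 0.71 ± 0.09, edgeR adjusted p = 2.91e-07). The inhibitor NFKBIA (IkB alpha) was at 56.0, 57.3 and 58.5 CPM with dried ginger and at 44.3, 43.0 and 47.8 CPM in vehicle (0.35 ± 0.07, adjusted p = 0.000568). ICAM1, a leukocyte adhesion molecule, was at 2.09, 2.42 and 1.98 CPM with dried ginger and at 0.540, 0.863 and 0.878 CPM in vehicle (1.51 ± 0.24, adjusted p = 1.7e-05). In all 3 genes the groups were apart. Smaller rises were seen in the anti-apoptotic BIRC3 (0.42 ± 0.06), TNFAIP2 (0.32 ± 0.05), the mitochondrial dismutase SOD2 (0.28 ± 0.04), the subunits NFKB2 (0.26 ± 0.06) and NFKB1 (0.22 ± 0.07), the IkB-like BCL3 (0.22 ± 0.06) and the inhibitor TNIP1 (0.22 ± 0.05), with edgeR adjusted p-values between 6.29e-07 for BIRC3 and 0.0347 for NFKB1. The kinase gene MAP3K8 fell by 0.25 on the log2 scale (adjusted p = 0.0134). The ubiquitin editor TNFAIP3 (0.30, adjusted p = 0.0947), the prostaglandin synthase PTGS2 (-0.25, adjusted p = 0.309), RELA (0.08, adjusted p = 0.498) and IRF1 (0.07, adjusted p = 0.785) did not pass the test. The calls of NFKB1, NFKB2, BCL3 and MAP3K8 were lost when some single libraries were left out. BCL3 was at 75.5 ± 3.85 CPM (SD) at 20 µg/mL and 73.1 ± 5.56 CPM at 500 µg/mL, so its mean was not higher at the higher dose.

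Of the receptors and adaptors above NF-kB, 2 of 13 tested members rose and 0 fell, beside 2.91% and 2.44% of all tested genes. The list's median log2 fold change was 0.03 against 0.00. IRAK2, a kinase-like adaptor of Toll-like and interleukin-1 receptors, was at 15.8, 13.9 and 14.4 CPM with dried ginger and at 7.77, 8.47 and 8.83 CPM in vehicle (log2 fold change 0.82 ± 0.08, edgeR adjusted p = 1.26e-10). IRAK1 was at 0.14 ± 0.04 (adjusted p = 0.0182), a call lost without some single libraries. TLR2, TLR4, TLR5 and LY96 had too few counts to be tested.

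The kB motif GGNNNTTCC was searched in the same promoters, on both strands. Of the 20 called members of both lists, 17 had an entry and 13 of these held the motif, against 17.1% of all 35116 promoters. MAP3K8, which fell, is among the 13, and the close paralogs CXCL1, CXCL2 and CXCL3 count as 3 of them. Both lists were chosen with earlier results of these data known, and their members that were not called were not searched. The share therefore cannot set called members apart from the rest of these lists. A match describes these letters and shows no binding. The stretches below are shown because they belong to the chemokine and feedback genes described above, with the motif in capitals and the gene's strand read 5′ to 3′. They lie at chr4:73740469-73740568 (CXCL8, plus), chr4:73869293-73869392 (CXCL1, plus), chr4:74099196-74099295 (CXCL2, minus), chr4:74038690-74038789 (CXCL3, minus), chr4:73998678-73998777 (CXCL5, minus), chr19:10270920-10271019 (ICAM1, plus) and chr14:35404750-35404849 (NFKBIA, minus).
CXCL8: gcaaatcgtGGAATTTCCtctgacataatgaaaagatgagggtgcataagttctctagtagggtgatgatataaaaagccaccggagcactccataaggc
CXCL1: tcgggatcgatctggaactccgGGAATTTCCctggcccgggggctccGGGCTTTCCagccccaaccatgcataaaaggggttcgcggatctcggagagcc
CXCL2: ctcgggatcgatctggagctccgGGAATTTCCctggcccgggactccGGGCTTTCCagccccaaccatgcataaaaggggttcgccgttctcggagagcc
CXCL3: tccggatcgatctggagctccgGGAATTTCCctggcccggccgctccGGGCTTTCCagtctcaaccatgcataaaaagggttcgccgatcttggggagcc
CXCL5: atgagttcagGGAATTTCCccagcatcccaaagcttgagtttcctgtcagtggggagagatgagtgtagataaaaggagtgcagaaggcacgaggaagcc
ICAM1: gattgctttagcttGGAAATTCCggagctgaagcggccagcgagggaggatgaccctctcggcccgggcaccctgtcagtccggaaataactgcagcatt
NFKBIA: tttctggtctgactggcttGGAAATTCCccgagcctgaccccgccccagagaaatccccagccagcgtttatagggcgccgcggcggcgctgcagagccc
GGAATTTCC stands 91 bases before the start of CXCL8, 90 before that of CXCL5, 78 before those of CXCL1 and CXCL3 and 77 before that of CXCL2, and the 3 paralogs share a second copy, GGGCTTTCC, 53 bases before the start. ICAM1 and NFKBIA share GGAAATTCC at 186 and 81 bases before the start.

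**Figure D2:**
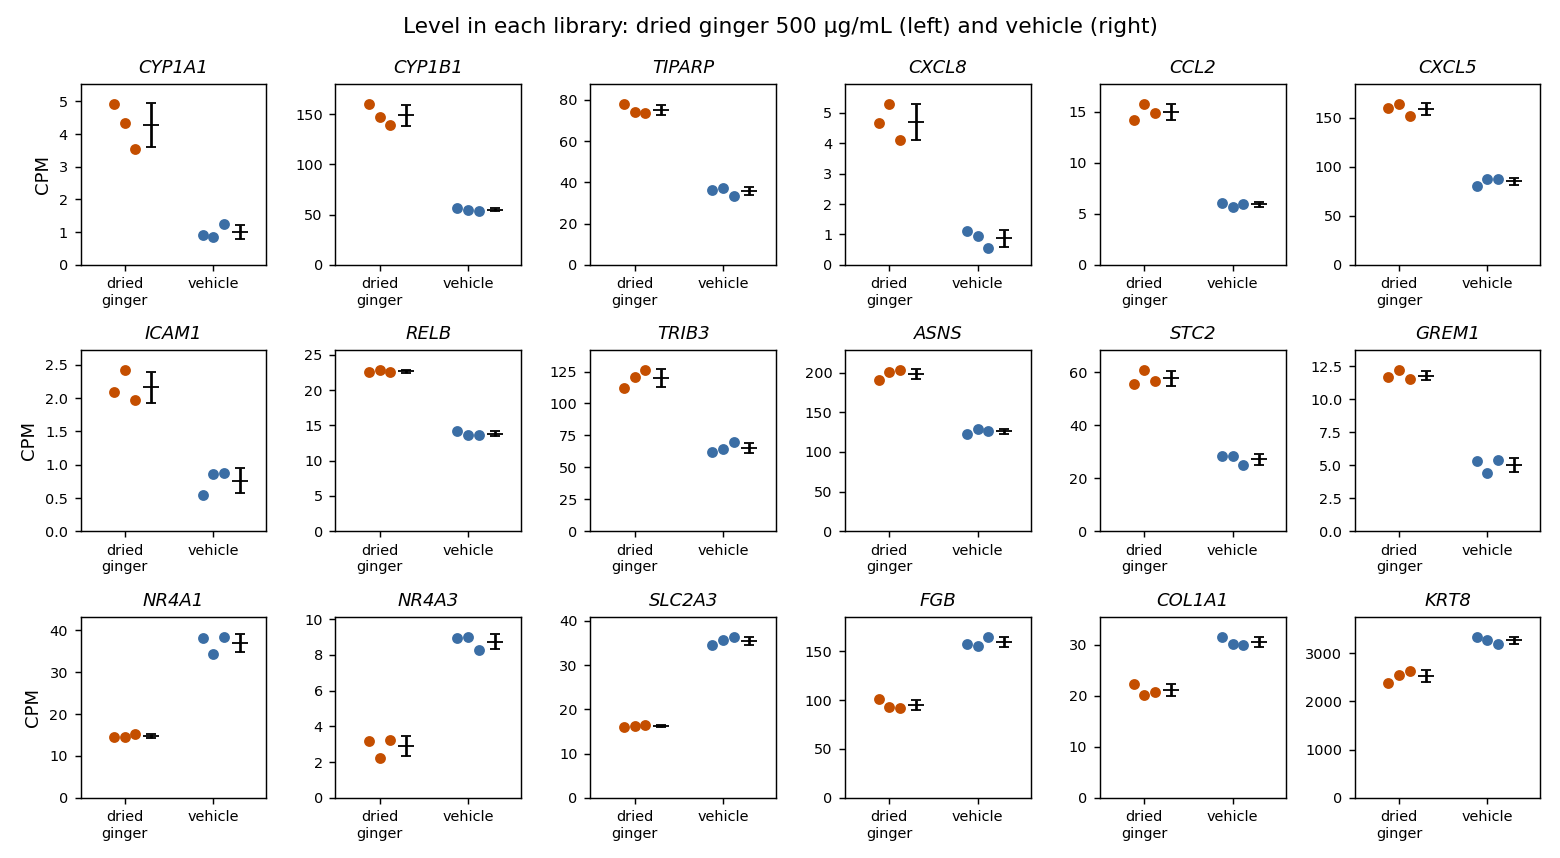
Level in CPM (vertical axis, from 0) of 18 genes in each of the 3 dried ginger libraries (500 µg/mL, left) and the 3 vehicle libraries (right), with the mean and SD beside the points. In all 18 panels the points of the groups do not overlap, with the 12 genes of the upper rows higher and the 6 of the lowest row lower with dried ginger.

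Most genes of the integrated stress response list rose. Of 18 tested regulators and targets, 12 rose and 0 fell, with a median log2 fold change of 0.44 against 0.00 over all tested genes. STC2, a secreted stanniocalcin that limits calcium entry, was at 55.7, 60.8 and 56.7 CPM with dried ginger and at 28.4, 28.4 and 24.9 CPM in vehicle (log2 fold change 1.08 ± 0.07, edgeR adjusted p = 1.45e-17). TRIB3, a pseudokinase that feeds back on ATF4, was at 112, 121 and 126 CPM with dried ginger and at 61.7, 64.2 and 69.6 CPM in vehicle (0.88 ± 0.06, adjusted p = 1.03e-14). CHAC1, which degrades glutathione, was at 11.4, 13.0 and 11.8 CPM with dried ginger and at 5.78, 6.12 and 5.73 CPM in vehicle (1.03 ± 0.09, adjusted p = 2.01e-12). All dried ginger libraries were above all vehicle libraries in these genes. The peptide hormone ADM2 rose by 1.10 ± 0.18, the mTOR inhibitors DDIT4 and SESN2 by 0.60 ± 0.05 and 0.53 ± 0.09, and the stress cytokine GDF15 by 0.60 ± 0.09. DDIT3, which encodes CHOP, rose by 0.66 ± 0.13 (edgeR adjusted p = 0.000597). ATF4 itself was at 0.22 (adjusted p = 0.0981) and ATF3 at 0.07 (adjusted p = 0.834), and neither passed the test, though ATF4 passed it without the filter on low counts, with the transcript length slope as a covariate, and when the fit held no libraries of other groups.

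Amino acid synthesis genes rose in 10 of 14 tested members and fell in 0, with a median log2 fold change of 0.42 against 0.00. Asparagine synthetase (ASNS) was at 191, 201 and 203 CPM with dried ginger and at 123, 129 and 126 CPM in vehicle (log2 fold change 0.65 ± 0.05, edgeR adjusted p = 1.53e-12). The serine synthesis enzymes PHGDH and PSAT1 rose by 0.60 ± 0.08 and 0.54 ± 0.04, the proline enzyme PYCR1 by 0.46 ± 0.04 and the mitochondrial folate enzyme MTHFD2 by 0.38 ± 0.04. CBS, the first enzyme of transsulfuration, rose by 0.68 ± 0.07, while CTH, the enzyme after it, was at -0.31 (adjusted p = 0.232) and did not pass the test. Among amino acid transporters 3 of 11 tested members rose and 0 fell, beside 2.91% and 2.44% of all tested genes. The 3 were the neutral carriers SLC1A4 (0.49 ± 0.06) and SLC1A5 (0.25 ± 0.04) and the glycine carrier SLC6A9 (0.60 ± 0.09). The cystine carrier SLC7A11 (0.12, adjusted p = 0.489) and the leucine carrier SLC7A5 (0.02, adjusted p = 0.941) did not pass.

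Cytosolic tRNA synthetases, which charge tRNAs with amino acids, rose in 9 of 20 members and fell in 0, with a median log2 fold change of 0.11 against 0.00. GARS1 was at 289.8, 296 and 297 CPM with dried ginger and at 227, 233 and 226 CPM in vehicle (0.36 ± 0.04, edgeR adjusted p = 5.05e-10). AARS1 and MARS1 each rose by 0.30 ± 0.04 and CARS1 by 0.31 ± 0.04. Of the 11 not called, QARS1 (-0.02), VARS1 (-0.01) and KARS1 (-0.01) lay near 0. Chaperones of the endoplasmic reticulum rose in 6 of 18 members and fell in 0, by 0.15 to 0.32 on the log2 scale (HSPA5 0.16 ± 0.05, HERPUD1 0.24 ± 0.06, DNAJB9 0.32 ± 0.09). Without dried ginger replicate 3 or without vehicle replicate 1, 0 of these 18 were called.

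The CEBP-ATF element TGATGNAA, which ATF4 binds with a CEBP partner, was found in 2 of the 20 called stress response, amino acid synthesis and transporter genes that had an entry, against 3.14% of all promoters. The 2 stretches are shown as they belong to ASNS (chr7:97872409-97872508, minus strand) and CHAC1 (chr15:40953251-40953350, plus strand), with the element in capitals, read in CHAC1 from the other strand.
ASNS: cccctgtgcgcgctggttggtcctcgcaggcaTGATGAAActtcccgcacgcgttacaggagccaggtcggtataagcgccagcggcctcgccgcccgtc
CHAC1: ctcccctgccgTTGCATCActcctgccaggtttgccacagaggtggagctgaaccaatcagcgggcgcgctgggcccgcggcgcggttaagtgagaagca
The element starts 68 bases before the start of ASNS and 209 bases before that of CHAC1. That 18 of 20 held no match says only that these letters are not in these windows. Members of these lists that were not called were not searched.

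Immediate early genes and the NR4A family moved in both directions. Of 18 tested members 4 were higher and 5 lower, beside 2.91% and 2.44% of all tested genes. The list's median log2 fold change was -0.04 against 0.00. The orphan nuclear receptors NR4A1, NR4A2 and NR4A3, which are usually induced within minutes by cAMP, calcium or growth factors, all fell. NR4A1 (ENSG00000123358) was at 14.5, 14.6 and 15.2 CPM with dried ginger and at 38.1, 34.4 and 38.5 CPM in vehicle (log2 fold change -1.32 ± 0.06, edgeR, adjusted p = 1.7e-21). NR4A3 was at 3.16, 2.24 and 3.24 CPM with dried ginger and at 8.93, 9.02 and 8.26 CPM in vehicle (-1.60 ± 0.15, adjusted p = 6.88e-11). NR4A2 was at 1.78, 1.62 and 1.42 CPM with dried ginger and at 4.07, 3.37 and 3.15 CPM in vehicle (-1.14 ± 0.16, adjusted p = 1.61e-06). The groups were apart in all 3. The AP-1 subunits FOSL1 and JUN rose by 0.72 ± 0.07 (adjusted p = 2.16e-10) and 0.36 ± 0.06 (adjusted p = 4.17e-05), and IER3 by 0.48 ± 0.10 (adjusted p = 0.00184). FOS (-0.40, adjusted p = 0.133), EGR1 (0.46, adjusted p = 0.241) and MYC (0.10, adjusted p = 0.25) did not pass. The cAMP element TGACGTCA was in 0 of the 5 called members with a promoter entry, against 1.65% of all promoters. Members of the list that were not called were not searched.

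Feedback genes of the ERK pathway rose in 5 of 10 tested members and fell in 0, beside 2.91% and 2.44% of all tested genes. The list's median log2 fold change was 0.18 against 0.00. The 5 were PHLDA1 (0.27 ± 0.04), the ETS factors ETV5 (0.24 ± 0.04) and ETV4 (0.21 ± 0.05), and the phosphatases DUSP6 (0.38 ± 0.09) and DUSP4 (0.16 ± 0.03). Their edgeR adjusted p-values ran from 1.69e-07 for PHLDA1 to 0.00983 for ETV4. Without vehicle replicate 2 the number was 3.

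**Figure D3:**
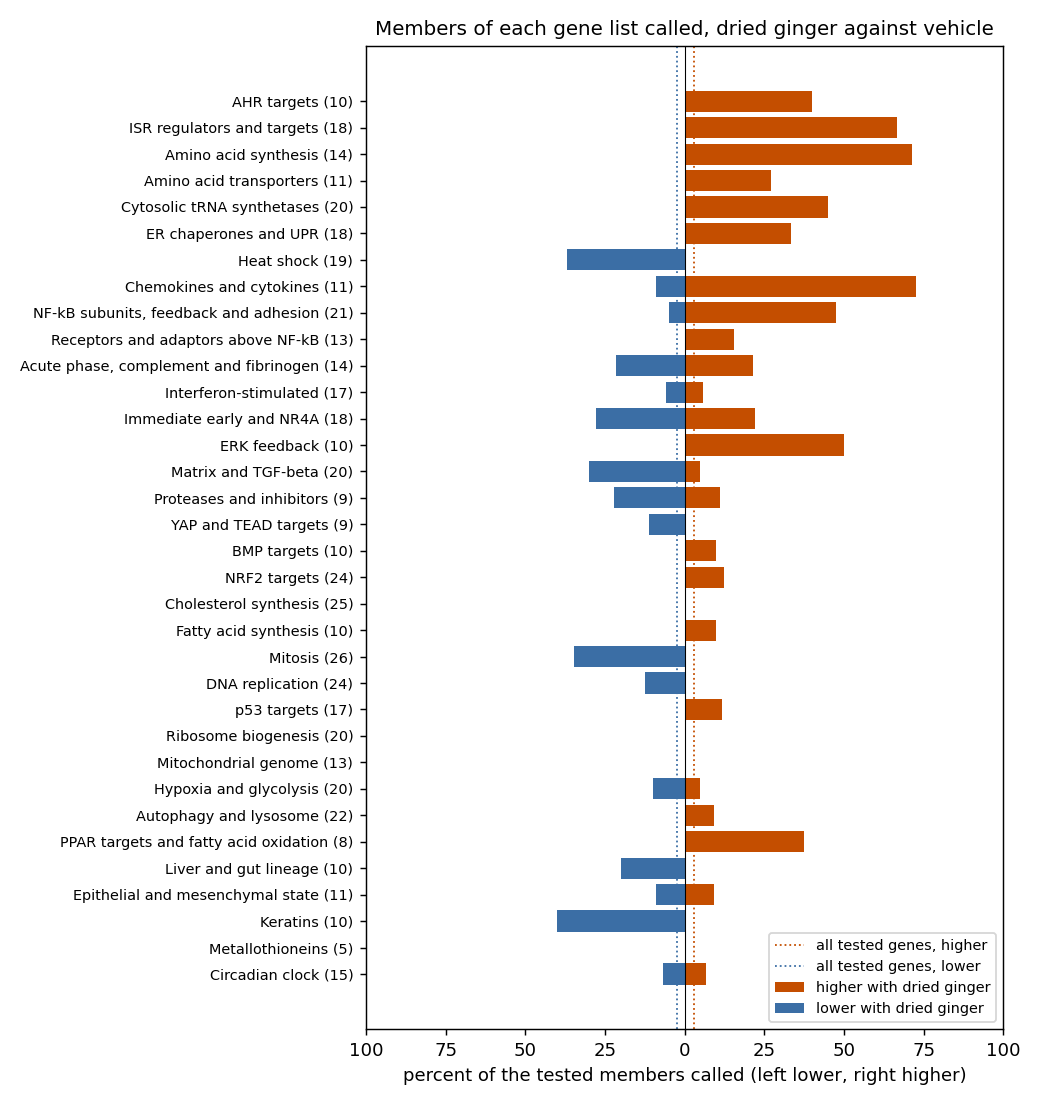
Percent of the tested members of each of 34 gene lists that were called higher (right) or lower (left) with dried ginger against vehicle, with the number tested in brackets and dotted lines at the percent of all tested genes called in that direction. Bars to the right are longest for chemokines (8 of 11), amino acid synthesis (10 of 14) and the stress response (12 of 18). Bars to the left are longest for keratins (4 of 10), heat shock (7 of 19) and mitosis (9 of 26). These are edgeR calls, and DESeq2 called 3 keratin, 8 heat shock and 13 mitosis genes lower, so the order of the left bars depends on the tool.

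Acute phase genes were split. The 3 fibrinogen chains, which the liver makes for clotting and which A549 cells also express, fell together, whereas complement genes rose, so that 3 of 14 tested members rose and 3 fell. FGB was at 101, 92.7 and 91.5 CPM with dried ginger and at 158, 156 and 165 CPM in vehicle (log2 fold change -0.75 ± 0.05, edgeR adjusted p = 1.61e-16). FGA and FGG fell by 0.70 and 0.57 on the log2 scale (adjusted p = 4.64e-16 and 2.44e-07). C3, the central complement component, was at 46.4, 43.8 and 41.3 CPM with dried ginger and at 29.8, 28.5 and 29 CPM in vehicle (0.59 ± 0.09, adjusted p = 5.89e-06). The complement protease gene C1S rose by 0.18 ± 0.03 (adjusted p = 0.00022) and the alternative pathway factor CFB by 1.07 ± 0.27 (adjusted p = 0.0105), a call lost without dried ginger replicate 2 or vehicle replicate 1. Among 17 interferon-stimulated genes tested, 1 rose and 1 fell, beside 2.91% and 2.44% of all tested genes. The member that fell was OAS1, a sensor of double-stranded RNA (-0.42 ± 0.07, edgeR adjusted p = 8.9e-05).

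Matrix genes fell in 6 of 20 tested members and rose in 1, beside 2.44% and 2.91% of all tested genes. The list's median log2 fold change was -0.10 against 0.00. COL1A1, a chain of type I collagen, was at 22.4, 20.1 and 20.8 CPM with dried ginger and at 31.6, 30.2 and 29.9 CPM in vehicle (-0.53 ± 0.07, edgeR adjusted p = 4.31e-08). The basement membrane collagen COL4A1 fell by 0.51 on the log2 scale, COL5A1 by 0.44, the matrix glycoprotein SPARC by 0.37, TGFBI by 0.19 and COL5A2 by 0.17. FN1, which encodes fibronectin, did not pass (0.03, edgeR adjusted p = 0.966). The metalloproteinase inhibitors TIMP2 and TIMP3 fell by 0.38 and 0.65 on the log2 scale (adjusted p = 6.39e-10 and 1.16e-06), and the urokinase gene PLAU rose by 0.24 ± 0.05 (adjusted p = 0.000253). GREM1, a secreted antagonist of BMP, was at 11.7, 12.2 and 11.5 CPM with dried ginger and at 5.32, 4.43 and 5.37 CPM in vehicle (1.23 ± 0.12, adjusted p = 1.33e-10). The list of BMP targets also held this antagonist. Of its 10 tested members, 1 rose (GREM1) and 0 fell by edgeR, beside 2.91% and 2.44% of all tested genes. DESeq2 called 1 higher and 1 lower. The BMP targets themselves, such as ID1 (0.04, edgeR adjusted p = 0.953) and SMAD6 (-0.12, adjusted p = 0.536), did not pass by edgeR.

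Heat shock genes fell in 7 of 19 members and rose in 0, beside 2.44% and 2.91% of all tested genes. The list's median log2 fold change was -0.13 against 0.00. The co-chaperone DNAJB1 was at 153, 155 and 168 CPM with dried ginger and at 186, 181 and 193 CPM in vehicle (-0.24 ± 0.04, edgeR adjusted p = 5.61e-06). HSPA1A and HSPA1B, near-identical HSP70 copies whose reads cannot be split with certainty, each fell by 0.33 on the log2 scale. The small heat shock protein gene CRYAB fell by 1.17, to 0.889, 1.17 and 1.31 CPM with dried ginger, against 2.45, 2.55 and 2.63 CPM in vehicle. Its mean with dried ginger was the lowest of the 20 groups. With fresh ginger at 500 µg/mL CRYAB was also below vehicle, at 1.67 ± 0.394 CPM (SD). EdgeR called 0 of the 19 heat shock genes between the gingers.

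Keratins fell in 4 of 10 tested members and rose in 0, beside 2.44% and 2.91% of all tested genes. The list's median log2 fold change was -0.22 against 0.00. KRT8, the main simple-epithelium keratin, was at 2382, 2541 and 2636 CPM with dried ginger and at 3338, 3277 and 3188 CPM in vehicle (-0.37 ± 0.08, edgeR adjusted p = 0.000578). Its partner KRT18 fell by 0.34 (adjusted p = 0.0114), a call lost without some single libraries, while KRT7 was at -0.01 (adjusted p = 0.978). KRT4 was at 15.2, 14.9 and 15.0 CPM with dried ginger and at 26.5, 27.6 and 28.6 CPM in vehicle (-0.87 ± 0.07, edgeR adjusted p = 2.43e-13). The remaining call, KRT17, lay near the floor, at 0.178, 0.359 and 0.119 CPM with dried ginger and 0.374, 0.745 and 0.723 CPM in vehicle. DESeq2 called 3 of the keratins lower. KRT8 and KRT18 are also members of the marker list of the cell line, whose summed level given above was lower in every dried ginger library than in every vehicle library. Of the 7 markers, 2 fell (these keratins) and 0 rose, and the list's median log2 fold change was 0.08. The lower sum is therefore not a fall across the list.

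Mitosis genes fell in 9 of 26 members and rose in 0, by small steps, with a median log2 fold change of -0.15 against 0.00. The kinase gene PLK1 was at 176, 175 and 172 CPM with dried ginger and at 202, 194 and 202 CPM in vehicle (-0.20 ± 0.03, edgeR adjusted p = 7.73e-05), and AURKA was at -0.22 ± 0.04 (adjusted p = 0.000116). The proliferation marker MKI67 was at -0.30 (adjusted p = 0.528) and did not pass. Among DNA replication genes 3 of 24 fell and 0 rose (among them RRM2 at -0.19 and MCM10 at -0.18). Among p53 targets 2 of 17 rose and 0 fell, with CDKN1A at -0.02 (edgeR adjusted p = 0.901). Over all tested genes 2.91% rose and 2.44% fell. The 2 p53 targets, TNFRSF10B (0.22 ± 0.06) and BBC3 (0.39 ± 0.12), which both promote apoptosis, were both lost without dried ginger replicate 1 or 3 or vehicle replicate 2.

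Further single genes were called, some of them in other lists. SLC2A3, a glucose transporter, was at 16.0, 16.3 and 16.5 CPM with dried ginger and at 34.5, 35.6 and 36.4 CPM in vehicle (log2 fold change -1.13 ± 0.06, edgeR adjusted p = 7.17e-19). Of the 20 glycolysis and hypoxia genes tested, 1 rose (VEGFA 0.22 ± 0.06) and 2 fell, SLC2A3 and ADM (-0.25 ± 0.07), while DESeq2 called 1 higher and 3 lower. SLC2A1, another glucose transporter, was at -0.03 (adjusted p = 0.72). H19, an imprinted long noncoding RNA, was at 40.3, 35.5 and 35.0 CPM with dried ginger and at 79.8, 79.6 and 95.8 CPM in vehicle (-1.20 ± 0.08, adjusted p = 8.91e-17). NPTX1, a neuronal pentraxin, fell by 0.95 on the log2 scale (adjusted p = 5.12e-12), INSL4, a relaxin-like peptide, by 0.91 (adjusted p = 1.31e-06) and the growth factor binding protein IGFBP5 by 0.95 (adjusted p = 0.00129). The liver transcription factor gene HNF4A fell by 0.47 (adjusted p = 3.78e-08) and CPS1, of the urea cycle, by 0.46 (adjusted p = 0.000283), 2 of 10 tested in the liver and gut list. Of 15 circadian clock genes, NPAS2, a partner of BMAL1, rose by 0.34 and DBP, a clock output factor, fell by 0.78 on the log2 scale. Of 11 epithelial and mesenchymal state genes, 1 rose, the tight junction gene OCLN (by 0.34), and 1 fell, the repressor SNAI1 (by 0.23). SNAI1 libraries overlapped, at 12.5, 12.8 and 15.6 CPM with dried ginger and 16.3, 16.5 and 15.4 CPM in vehicle. Of 9 YAP targets 1 fell, ANKRD1 (by 0.48), and 0 rose. These few calls stand beside 2.91% higher and 2.44% lower over all tested genes.

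Of 24 NRF2 targets, 3 rose and 0 fell. For this and the other lists of this paragraph, the share over all tested genes was 2.91% higher and 2.44% lower. HMOX1, which degrades haem, was at 199.5, 207 and 231 CPM with dried ginger and at 164, 159 and 176 CPM in vehicle (0.35 ± 0.07, edgeR adjusted p = 0.000365). GCLM (0.20 ± 0.05) and FTH1 (0.41 ± 0.12) were the other calls, and 1 of 24 was called without dried ginger replicate 2 or without vehicle replicate 1. FTH1 was at 3250 ± 539 CPM (SD) in vehicle. Its level was much the same at all doses, at 4275 ± 895, 4261 ± 641 and 4328 ± 339 CPM at 20, 100 and 500 µg/mL. The autophagy receptor gene SQSTM1 rose by 0.41 ± 0.05 (adjusted p = 1.19e-07) and the lysosomal protease CTSL by 0.26 ± 0.06 (adjusted p = 0.00102), 2 of 22 tested. In fat metabolism the lipid droplet gene PLIN2 (0.44 ± 0.08), the carnitine transferase CPT1A (0.28 ± 0.06) and ACADVL (0.26 ± 0.06) rose, 3 of 8 tested. EdgeR called 0 of 25 cholesterol synthesis genes (7 at an unadjusted p under 0.05), 0 of 20 ribosome biogenesis genes (1 unadjusted), 0 of 13 genes of the mitochondrial genome (0 unadjusted) and 0 of 5 metallothioneins and zinc carriers (0 unadjusted), and DESeq2 also called 0 in each.

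The same extract at lower doses shows where on the dose scale these levels changed. CYP1B1 was at 54.8 ± 1.54 CPM in vehicle and at 61.1 ± 5.66, 76.7 ± 3.93 and 149 ± 10.5 CPM at 20, 100 and 500 µg/mL (SD, n = 3 each). STC2 was at 27.2 ± 2.00 CPM in vehicle and at 26.1 ± 2.39, 29.5 ± 1.96 and 57.8 ± 2.69 CPM over the same doses. CXCL8 was at 0.877 ± 0.282 CPM in vehicle and at 1.40 ± 0.374, 1.89 ± 0.351 and 4.69 ± 0.591 CPM with the extract. In each of these genes the 500 µg/mL libraries lay above all those of the lower doses. NR4A1 was at 37.0 ± 2.28 CPM in vehicle and at 37.9 ± 0.755, 27.2 ± 0.821 and 14.8 ± 0.387 CPM with the extract. Its 3 libraries at 100 µg/mL lay below all of vehicle and above all of 500 µg/mL, a difference that was not tested at 100 µg/mL.

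**Figure D4:**
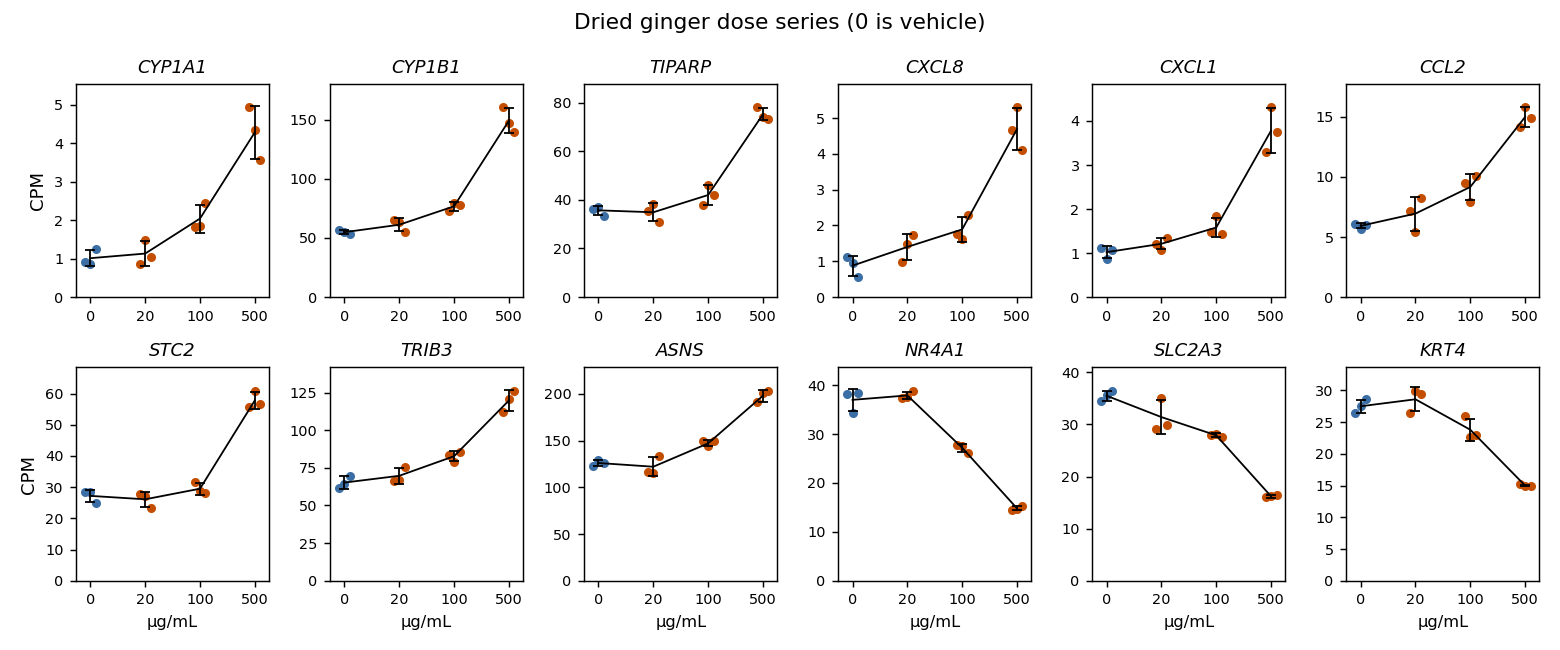
Level in CPM (vertical axis, from 0) of 12 genes in vehicle (0) and in dried ginger at 20, 100 and 500 µg/mL (horizontal axis, equal steps), with 1 point per library and the line through the means with SD. CYP1B1, STC2 and CXCL8 are highest and NR4A1 is lowest at 500 µg/mL, and STC2 at 100 µg/mL (29.5 CPM) lies near vehicle (27.2 CPM).

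Between 500 and 20 µg/mL, whose sample codes begin with the same number, edgeR called 795 genes (4.64%), 421 (2.46%) higher and 374 (2.18%) lower at 500 µg/mL. Of the AHR list 4 of 10 rose, of the stress response list 10 of 18, of amino acid synthesis 9 of 14 and of the tRNA synthetases 10 of 20, with 0 falling in each. Other lists had fewer calls than against vehicle: edgeR called 0 of 18 ER chaperone genes (6 at an unadjusted p under 0.05, and DESeq2 called 1), against 6 higher than vehicle, and 4 of 26 mitosis genes were lower, against 9 lower than vehicle. Matrix genes fell in 4 and rose in 2 of 20. Whether these counts differ between the comparisons was not tested. In the chemokine list 8 of 11 rose and 1 fell, while 10 of the 21 NF-kB genes rose and 1 fell. CYP1A1 differed by 1.92 (adjusted p = 1.63e-09), CXCL8 by 1.75 (adjusted p = 8.26e-09), STC2 by 1.14 (adjusted p = 3.17e-18) and NR4A1 by -1.36 (adjusted p = 1.15e-21) on the log2 scale. This comparison shares the 500 µg/mL libraries with that against vehicle, so the values stand side by side and are not independent. In the 20 µg/mL group replicate 3 stood apart: its counts differed from replicates 1 and 2 by a chi-square per degree of freedom of 35.3 and 36.8, against 2.62 between those 2, and its length slope was 0.88, against 1.04 in both. The log2 differences between the doses had a Spearman correlation of 0.228 with transcript length across genes. Without that library 568 genes were called, 278 higher and 290 lower, with 4 of 10 AHR, 11 of 18 stress response, 9 of 14 amino acid synthesis, 9 of 20 tRNA synthetase, 7 of 11 chemokine and 8 of 21 NF-kB genes higher. CYP1A1 then differed by 1.87 (edgeR adjusted p = 1.22e-07), CXCL8 by 1.92 (adjusted p = 3.55e-08), STC2 by 1.07 (adjusted p = 6.81e-16) and NR4A1 by -1.34 (adjusted p = 1.05e-19). The count was 518 without dried ginger 500 µg/mL replicate 1, 1388 with the transcript length slope as a covariate, and 64 when only the 6 libraries concerned were fitted.

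Against fresh ginger at the same dose, dried ginger differed in 122 genes (0.712%), 67 (0.391%) higher and 55 (0.321%) lower. By the rule used above for the largest changes, the 4 largest differences upward were in CXCL8, CXCL1, CCL2 and IL32. The 4 largest downward were in AP001972.5, RASA4, AL359183.1 and NR4A3. In the chemokine list 5 of 11 were higher and 0 lower, and in the NF-kB list 9 of 21 were higher and 0 lower. CXCL8 was at 4.69 ± 0.591 CPM with dried and 1.27 ± 0.377 CPM with fresh ginger (log2 difference 1.90 ± 0.21, edgeR adjusted p = 2.76e-08). ICAM1 was at 2.16 ± 0.232 CPM with dried and 0.6 ± 0.106 CPM with fresh ginger, a difference of 1.85 ± 0.26 (adjusted p = 7.11e-06). CXCL1 differed by 1.67 ± 0.21 (adjusted p = 1.4e-06), CCL2 by 1.05 ± 0.13 (adjusted p = 1.4e-06), IL32 by 0.94 ± 0.15 (adjusted p = 0.000105), IRAK2 by 0.62 (adjusted p = 1.4e-06), C3 by 0.53 (adjusted p = 0.000283) and RELB by 0.56 ± 0.09 (adjusted p = 0.000241). CXCL2 (0.39, adjusted p = 0.353) and CXCL3 (0.63, adjusted p = 0.178) did not pass.

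The AHR genes CYP1B1 (0.27 ± 0.06, adjusted p = 0.0131) and TIPARP (0.38 ± 0.08, adjusted p = 0.00262) were also higher with dried than with fresh ginger, while CYP1A1 (0.37 ± 0.18, adjusted p = 0.754) did not pass. Keratin KRT4 was lower with dried ginger by 0.72 on the log2 scale (adjusted p = 1.76e-09), at 15.0 ± 0.128 CPM with dried and 24.8 ± 1.40 CPM with fresh ginger. NR4A3 (-0.73, adjusted p = 0.0132), NR4A1 (-0.26, adjusted p = 0.0395), FGB (-0.38, adjusted p = 1.4e-06), FGA (-0.29, adjusted p = 0.000126), FGG (-0.36, adjusted p = 0.00377) and SLC2A3 (-0.35, adjusted p = 0.000958) were lower with dried ginger as well. EdgeR called 0 of the 18 stress response genes, 0 of 14 amino acid synthesis genes and 0 of 20 tRNA synthetases between the gingers (4, 0 and 0 at an unadjusted p under 0.05), and DESeq2 also called 0 in each. The log2 differences lay between -0.26 and 0.08, between -0.10 and 0.05, and between -0.06 and 0.09 in the 3 lists. STC2 differed by 0.08 ± 0.06, ASNS by -0.03 ± 0.05 and PSAT1 by -0.01 ± 0.04. A p that misses the threshold does not show that the gingers act alike in these genes. The cholesterol list, with 0 calls against vehicle, had 4 of 25 members lower with dried than with fresh ginger, among them INSIG1, which holds back the sterol sensor (-0.34 ± 0.05, adjusted p = 7.85e-05), STARD4 (-0.30 ± 0.07, adjusted p = 0.0143) and MSMO1 (-0.21 ± 0.05, adjusted p = 0.024). The count of 122 was 73 without fresh ginger replicate 1 and 343 with the transcript length slope as a covariate.

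Against Pinelliae Tuber at the same dose 706 genes differed (4.12%), 327 (1.91%) higher and 379 (2.21%) lower with dried ginger. Among the lists, 4 of 10 AHR genes, 9 of 18 stress response genes, 9 of 14 amino acid synthesis genes and 11 of 20 tRNA synthetases were higher with dried ginger and 0 lower. CYP1A1 was at 4.28 ± 0.689 CPM with dried ginger and 1.71 ± 0.122 CPM with Pinelliae Tuber (log2 difference 1.32 ± 0.19, edgeR adjusted p = 1.86e-06). STC2 was at 57.8 ± 2.69 CPM with dried ginger and 26.6 ± 1.18 CPM with Pinelliae Tuber, a difference of 1.11 ± 0.06 (adjusted p = 7.84e-18). NIBAN1, a stress-induced gene, differed by 1.16 ± 0.14 (adjusted p = 1.12e-07).

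In the chemokine list 1 of 11 was higher and 5 lower with dried ginger than with Pinelliae Tuber, and in the NF-kB list 0 of 21 were higher and 4 lower. CXCL8 was at 4.69 ± 0.591 CPM with dried ginger and 7.57 ± 0.0361 CPM with Pinelliae Tuber (-0.69 ± 0.16, edgeR adjusted p = 0.00594), and CXCL1 differed by -0.96 ± 0.17 (adjusted p = 0.000131). CCL2 (-0.05 ± 0.12, adjusted p = 0.882), RELB (0.01 ± 0.09, adjusted p = 0.97) and NFKBIA (0.01, adjusted p = 0.978) did not pass. NR4A1 differed by -1.14 (adjusted p = 1.31e-18), FGB by -0.71 (adjusted p = 1.7e-15) and KRT4 by -0.86 (adjusted p = 3.79e-13). Pinelliae Tuber replicate 2 stood apart, at a chi-square per degree of freedom of 23.1 and 16.2 from replicates 1 and 3, against 4.37 between those. Without it 3 of 10 AHR, 9 of 18 stress response, 9 of 14 amino acid synthesis and 9 of 20 tRNA synthetase genes were higher with dried ginger, and 4 of 11 chemokine and 3 of 21 NF-kB genes lower. CXCL8 then differed by -0.69 (edgeR adjusted p = 0.0255) and STC2 by 1.08 (adjusted p = 8.94e-16). The count was 388 and 464 without dried ginger replicates 1 and 2, 362 without Pinelliae Tuber replicate 2, 1121 without the filter on low counts, 1301 with the transcript length slope as a covariate, and 164 when only the 6 libraries concerned were fitted.

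**Figure D5:**
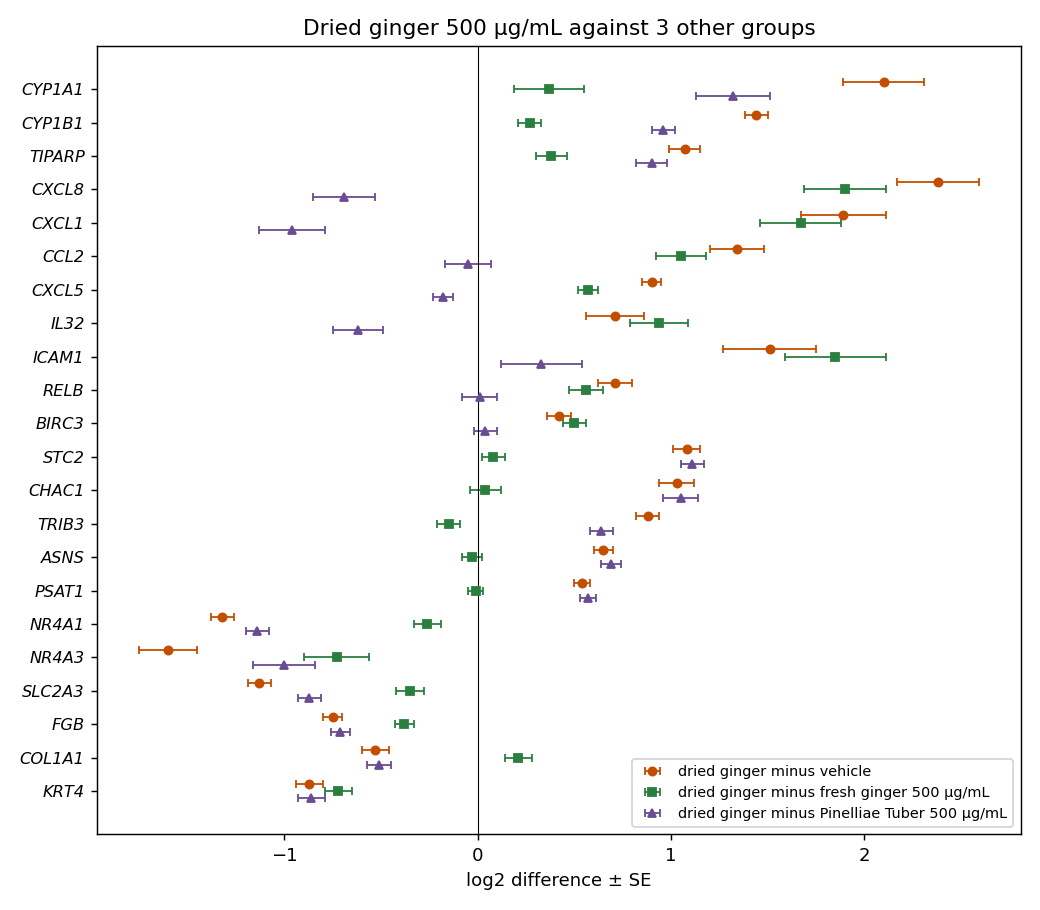
Log2 difference with its SE (horizontal axis) for 22 genes of dried ginger at 500 µg/mL minus vehicle (circles), minus fresh ginger (squares) and minus Pinelliae Tuber (triangles), which share the dried ginger libraries. STC2, CHAC1, ASNS and PSAT1 lie near 0 against fresh ginger, whereas CXCL8 lies at 1.90 against fresh ginger and at -0.69 against Pinelliae Tuber.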

How the data were processed

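RNA of A549 cells was sequenced as paired reads from directional mRNA libraries, and the authors deposited 1 table of RSEM estimated counts (expected counts) for 60675 genes. Per the submitters' processing notes, the tools were RSEM 1.3.3, STAR 2.7.3a, FastQC 0.11.9 and Trim Galore 0.6.5, with build GRCh38/hg38. Neither the gene annotation release nor whether counting used strand is given, so overlapping and antisense genes cannot be separated with certainty. The table has 269 columns, of which 60 matched the labels and 209 were not used. The estimated counts were rounded to whole numbers. Names came from the reference tables for 41209 and from GENCODE 29 for 15846 gene IDs, and 3620 IDs without a name held 0.0579% of counts and stayed in the fit.

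EdgeR 4.0.16 (R 4.3.3, limma 3.58.1) was run with TMM normalization, filterByExpr by group and the robust quasi-likelihood test on all 60 libraries in 20 groups, with 40 residual degrees of freedom and Benjamini-Hochberg adjustment over 17129 genes. The biological coefficient of variation shared by all genes was 7.04%. Totals ran from 17420373 to 36479629 estimated counts per library. Dried ginger at 500 µg/mL was compared with vehicle, with its own 20 µg/mL dose, and with fresh ginger and Pinelliae Tuber at 500 µg/mL. In simulated data for dried ginger against vehicle over 16885 genes, 83.0% of 100 genes changed by 1.5-fold and 93.0% of 100 changed by 2-fold were recovered, with 10 other genes called. The changed genes were drawn only from those above a minimum mean count, and the simulated spread followed its trend with expression level. Gene-specific spread and outlying libraries were not simulated, so recovery in the real data, above all for low genes, may be lower.

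Gene lists, members and tests were chosen with earlier results of these data known. Named genes were the 12 largest rises and 12 largest falls with a mean of at least 1 on the log2 CPM scale and no overlap between groups, up to 4 called members of each list and 2 in the other direction, a panel of 30 genes, and the 4 largest differences each way from fresh ginger and from Pinelliae Tuber. Further members were named after their values were seen. Alternatives were DESeq2 size factors, no filter on low counts, DESeq2 1.42.0, the 6 libraries alone, a replicate block, the slope of log counts on transcript length per library as a covariate, and each library left out. Values of a few genes are not reported here.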

Additional observations from a re-analysis of the deposited data

How the results depend on the processing

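The count of genes called against vehicle (916) was 2002 when the transcript length slope was a covariate. It was 945 with DESeq2 size factors, 755 without the filter, 1166 with the 6 libraries alone and 998 by DESeq2. Of the 916 genes, these held 899, 537, 782 and 873 in the same order, and the slope fit held all 916. Leaving out 1 library gave 618 to 733. Against 20 µg/mL (795) the count was 1388 with the slope, 64 with the 6 libraries alone, and 518 to 855 with 1 library left out. Against fresh ginger (122) it was 343 with the slope and 73 to 108 with 1 library left out. Against Pinelliae Tuber (706) it was 1121 without the filter, 1301 with the slope, 164 with the 6 libraries alone, and 362 to 670 with 1 library left out. The cause of these shifts was not tested.

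With the replicate block the counts were 912, 788, 122 and 700 in the same order, and it changed no call among the 182 genes followed against vehicle. Same-numbered libraries of dried ginger and vehicle correlated at 0.03, 0.01 and 0.03 in their deviations, so the numbers were not taken as pairs. For the 182 genes, 1995 of 2182 alternatives kept direction and call, 181 lost the call, 6 gained it and 0 reversed. Depth limits the low genes most: CXCL8, CXCL1, CYP1A1 and ICAM1 lay near 1 CPM in vehicle.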

Other observations

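Outside the gene lists, the called genes with the smallest p in each direction were looked up after their values were seen. PCK2, the mitochondrial phosphoenolpyruvate carboxykinase, was at 54.1, 62.8 and 57.2 CPM with dried ginger and at 33.0, 33.6 and 35.6 CPM in vehicle (log2 fold change 0.77 ± 0.07, edgeR adjusted p = 1.96e-11). The protease-activated receptor genes F2RL1 and F2R rose by 0.39 ± 0.04 and 0.35 ± 0.05 (adjusted p = 3.32e-10 and 1.71e-07). The EGF receptor ligand gene EREG rose by 0.49 ± 0.06 (adjusted p = 4.63e-09) and the macrophage growth factor gene CSF1 by 0.42 ± 0.05 (adjusted p = 1.01e-07).

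SGK1, a kinase gene induced by glucocorticoids, was at 34.0, 33.2 and 34.6 CPM with dried ginger and at 49.5, 48.9 and 51.5 CPM in vehicle (-0.56 ± 0.04, edgeR adjusted p = 1.63e-16). LBH, a transcription cofactor, fell by 0.64 on the log2 scale (adjusted p = 3.61e-15), the P-TEFb inhibitor HEXIM1 by 0.43 (adjusted p = 2.2e-11), the small MAF protein MAFK by 0.40 (adjusted p = 3.95e-11) and PMEPA1, a TGF-beta target, by 0.39 (adjusted p = 1.56e-10). In all of these genes the 3 dried ginger libraries lay on one side of the 3 vehicle libraries.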
